A study of Mus musculus with 6 samples.

Results

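Asb9, Nsg2 and Tox3 are 3 genes that were picked because their transcripts were strongly raised in Oct4-Venus-positive cells after 7 days of SFEBq culture against undifferentiated embryonic stem cells, outside the hypoxia and GABA genes. They are measured by 4 of the 34945 probe sets that name a single gene, which stand for 3 of 18193 genes. Asb9 and Tox3 have 1 such probe set each and Nsg2 has 2. They were chosen by the measured day 7 and ESC signals, so that comparison is given here as a description without a test. Without a block for the array number, 3 of the 3 genes passed the test for a rise at day 3, the stage between, as did 1.33% of all genes. That test uses the same ESC arrays as the choice, and with the block none of the 3 passed.

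The study followed mouse embryonic stem cells of the line OLV2-1, which carry the fluorescent reporter Venus at Oct4 (Pou5f1), along SFEBq, in which dissociated cells quickly form floating aggregates without serum and turn to neural fates. There were 6 Affymetrix arrays, 2 for each of 3 groups, and every group came from this line and was sorted as Oct4-Venus-positive. The ESC group is undifferentiated cells, which the sorting protocol gives as CD31-positive (CD31 is Pecam1). The EpiSC-like group is the Pecam1-negative fraction of day 3 aggregates, named for epiblast stem cells, and the Day7_Oct4-Venus+ group is the Venus-positive fraction of day 7 aggregates with no Pecam1 gate named. Trypsin was used to separate the ESC and day 3 cells, which were then rested and stained, whereas EDTA in buffer was used at day 7, so that day 7 differences cannot be told apart from that handling. Whether the paired arrays of a group stand for separate cultures is not said in the labels, and p-values then measure only the spread between these arrays. Since only 1 line was used, differences hold for that line.

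Each of the 3 genes is known from differentiated cells. Asb9 encodes an ankyrin repeat protein with a SOCS box, the part that hands bound proteins to a ubiquitin ligase built on the scaffold CUL5, and the known cargo of Asb9 is creatine kinase. Nsg2 encodes a small membrane protein of neuronal endosomes and vesicles, from the family of Nsg1 and calcyon, which take part in moving receptors such as AMPA glutamate receptors. Tox3 encodes a nuclear protein with an HMG box, a DNA-bending domain, and acts with the activator CREB and its coactivator CBP in neurons.

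The arrays were alike in overall scale. Pou5f1, the reporter gene, read 6244 to 14055 signal units on the 6 arrays, and the median signal of all probe sets lay between 63.99 and 76.3. Arrays numbered 1 in the labels had highest signals of 30793 to 36841 and arrays numbered 2 had 63296 to 66643, a split that follows the array number in each group. The poly-A controls did not follow it, with 66.2 and 68.9 on ESC replicate 2 and EpiSC-like replicate 2 and 527 to 736 on the other 4 arrays. What the numbers stand for is not said in the labels, and differences of the 3 genes are also given between arrays of the same number. Actin's 3' probe set exceeded its 5' one by log2 values of 0.71 and 0.94 on the day 7 arrays and of 0.46 to 0.58 on the other 4, a measure of RNA integrity, and its part in the day 7 values was not tested.

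The sequences before the annotated starts are shown because the 3 genes all stood above ESC at day 3. The Tox3 window is much richer in G and C than those shown for Asb9 and Nsg2. Each window holds the 250 bases before a start in RefSeq's GRCm38.p6 annotation, read 5' to 3' on the gene's strand. Capitals mark E-boxes (CANNTG), the motif bound by helix-loop-helix factors. The Asb9 window is chrX:164497653-164497902 on the plus strand, the Nsg2 window chr11:32000169-32000418 on the plus strand and the Tox3 window chr8:90348253-90348502 on the minus strand.
Asb9: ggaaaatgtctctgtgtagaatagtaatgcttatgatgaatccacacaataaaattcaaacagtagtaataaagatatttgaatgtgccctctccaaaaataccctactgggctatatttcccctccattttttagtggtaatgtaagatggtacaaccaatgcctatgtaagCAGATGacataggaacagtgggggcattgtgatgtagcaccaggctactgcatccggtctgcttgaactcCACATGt
Nsg2: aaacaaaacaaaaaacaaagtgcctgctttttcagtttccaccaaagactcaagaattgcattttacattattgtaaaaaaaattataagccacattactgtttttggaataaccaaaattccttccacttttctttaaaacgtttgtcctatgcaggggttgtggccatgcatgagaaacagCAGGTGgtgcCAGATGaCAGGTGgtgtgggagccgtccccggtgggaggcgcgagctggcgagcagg
Tox3: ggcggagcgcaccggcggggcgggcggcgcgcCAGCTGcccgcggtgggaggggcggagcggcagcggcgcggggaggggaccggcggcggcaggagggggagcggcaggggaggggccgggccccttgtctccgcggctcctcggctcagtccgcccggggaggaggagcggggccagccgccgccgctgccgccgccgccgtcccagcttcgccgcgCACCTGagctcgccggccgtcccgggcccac

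The Tox3 window was 84.4% G and C, above 99.8% of the 32851 windows in the same table, and held 40 CpG dinucleotides against a median of 6. The Asb9 window was 40% G and C with 1 CpG, and 11.8% of windows were lower in G and C. The Nsg2 window, at 43.6% with 6 CpG, also lay below the median window of 52.4%. A second annotated start of Nsg2 has a window of 56.4% G and C, which is not shown. E-boxes occurred 2 times in the Asb9 window, 3 times in that of Nsg2, where they begin 67, 57 and 50 bases before the start, and 2 times in that of Tox3. On both strands together 66.2% of all windows held an E-box, so its presence in 3 of 3 is common. The form CAGCTG, which is counted among the E-boxes, was found in the Tox3 window and in 13% of all windows. ACAAAG, a SOX-type motif, was found in the Nsg2 window and in 16.5% of all. No match was found in the 3 windows shown for the hypoxia element core ACGTG (in 16.6% of all windows), for the cyclic AMP element TGACGTCA (1.55%) and its core TGACG (17.8%), for the octamer ATGCAAAT (1.60%), for the retinoid element AGGTCA (14.0%) or for the TATA box TATAAA (12.4%).

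Asb9 (NCBI gene 69299) was near the bottom of the scale in ESC and stood higher at each later stage. It read 3.68 and 2.52 signal units on the ESC arrays, 61.3 and 71.0 on the EpiSC-like arrays, and 129 and 258 on the day 7 arrays (replicates 1 and 2 in each case). No 2 groups overlapped, which for ESC and day 7 follows from the choice. With 2 arrays against 2, an exact permutation test cannot go below a p of 0.333. The share of all genes without overlap is not given here, so nothing is read from the separation. On the ESC arrays at most 8.18% of all probe sets were dimmer, detection calls were not used here, and any fold against this level depends on the constant added before taking logs. With 16 units added, the day 3 level exceeded that of ESC by 2.10 ± 0.34 (log2 difference ± SE, n = 2 per group, limma adjusted p = 0.0428). Between same-numbered arrays the differences were 1.97 for replicate 1 and 2.23 for replicate 2. From day 3 to day 7 the log2 difference was 1.28 ± 0.34 (95% interval 0.47 to 2.09), which did not pass over all genes (limma adjusted p = 0.181, unadjusted p = 0.00778). It was above 0 for both array numbers, at 0.90 and 1.66. That step uses the same day 7 arrays as the choice, so neither its test nor its sign is independent of the choice. The day 7 difference against ESC, on which the gene was chosen, was 3.38 ± 0.34.

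Nsg2 (NCBI gene 18197) was higher at day 3 than in ESC, and its further difference at day 7 did not pass. Its brighter probe set read 8.76 and 8.34 signal units in ESC, 141 and 168 in EpiSC-like cells, and 165 and 340 at day 7. The ESC arrays stood clear of all others, while the lower day 7 array lay between the 2 day 3 arrays. The gene rose by a log2 difference of 2.79 ± 0.35 from ESC to day 3 (limma adjusted p = 0.0255), by 2.66 and 2.92 between same-numbered arrays. The following step to day 7 was 0.58 ± 0.35 (95% interval -0.26 to 1.43, limma adjusted p = 0.522), with 0.21 and 0.95 between same-numbered arrays. The difference between day 7 and ESC, on which the gene was chosen, was 3.37 ± 0.35.

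The second Nsg2 probe set was dimmer and also stood higher at both later stages than in ESC. It read 3.4002 and 4.48 units in ESC, 33.5 and 30.3 at day 3, and 27.5 and 45.0 at day 7. Its log2 differences were 1.26 ± 0.27 from ESC to day 3 and 0.11 ± 0.27 from there to day 7, smaller than those of the brighter probe set. On all 6 arrays it stayed below the median probe set, where the added constant compresses differences most. The day 3 and day 7 arrays overlapped on this probe set too.

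Tox3 (NCBI gene 244579) was higher at day 3 than in ESC, and its day 7 level did not differ from that at day 3 beyond the spread between arrays. It read 90.4 and 28.05 signal units in ESC, 806 and 558 in EpiSC-like cells, and 468 and 724 at day 7. The ESC arrays lay below the other 4, and the day 3 and day 7 arrays interleaved. The rise from ESC to day 3 was 3.33 ± 0.47 (limma adjusted p = 0.0326), with 2.95 and 3.70 between same-numbered arrays. From day 3 to day 7 the log2 difference was -0.20 ± 0.47 (95% interval -1.32 to 0.93, limma adjusted p = 0.898). Its sign differed between the array numbers (-0.76 and 0.37), so no direction is given for that step. The chosen difference between day 7 and ESC was 3.13 ± 0.47. Of the 3 genes, Tox3 had the widest gap between the ESC arrays, 1.27 on the log2 scale, and 95.9% of all genes had a smaller one.

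**Figure D1:**
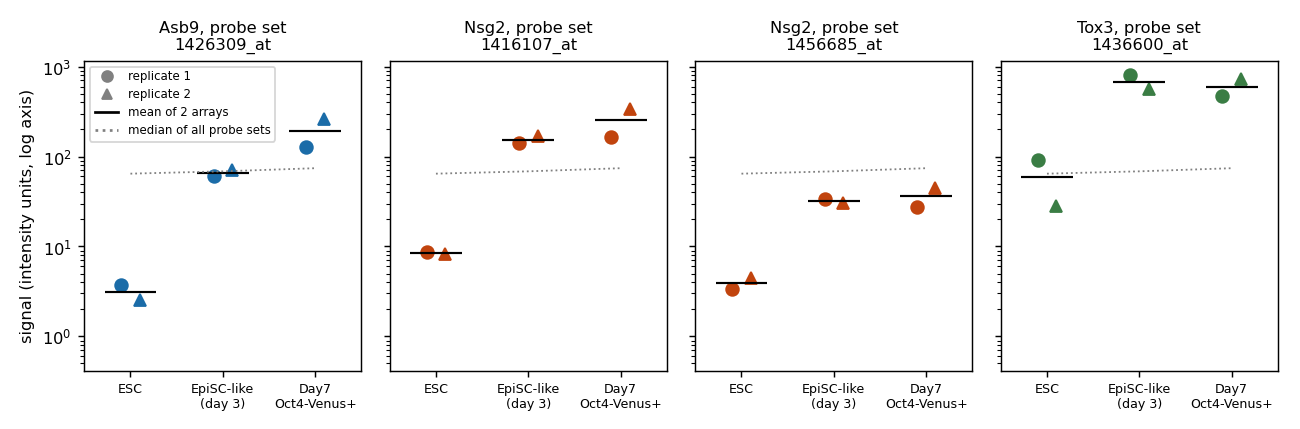
Signal of each array (intensity units, log axis) for the 4 probe sets in the 3 groups. Circles are replicate 1 and triangles replicate 2, bars are means of 2 arrays, and the dotted line is the median of all probe sets. ESC arrays lie lowest in each panel, and the day 3 and day 7 arrays overlap for both Nsg2 probe sets and Tox3 but not for Asb9. With 2 arrays per group, overlap is given only as a description.

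The test of day 3 against ESC shares its ESC arrays with the comparison that chose the genes, so it is not independent of the choice. A gene chosen for low ESC values would tend to stand higher in any other group. The step from day 3 to day 7 shares its day 7 arrays with the choice. A gene chosen for high day 7 values would tend to stand lower at day 3. Over all genes 1.9% were called between EpiSC-like cells and ESC at a limma adjusted p under 0.05, 1.33% higher and 0.572% lower, and 3 of the 3 chosen genes were among the higher. In the comparison of day 7 with ESC, on which the genes were chosen, 1.05% of genes were called, 0.764% higher and 0.286% lower, and nothing is read from the members' place in it. For day 7 against day 3, limma called 0 of 18193 genes (0%; 2573 at an unadjusted p under 0.05). That neither Nsg2 nor Tox3 passed in the second step therefore does not set them apart, and the order of the 3 steps was not itself tested.

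The calls for day 3 against ESC were close to the threshold and depended on the arrays used. Without any 1 array in turn the log2 difference of Asb9 stayed between 2.02 and 2.19, and its limma adjusted p rose to between 0.0536 and 0.211, so no such fit kept the call. For Nsg2 the adjusted p was 0.0785 without ESC replicate 1, 0.160 without ESC replicate 2, 0.102 without EpiSC-like replicate 1, 0.170 without EpiSC-like replicate 2, and 0.0406 without either day 7 array. The call for Tox3 held without ESC replicate 1 (adjusted p = 0.0476) and was lost without each of the other 5 arrays (0.0702 to 0.162), with log2 differences from 2.69 to 3.96 over the 6 fits. With the array number as a block the adjusted p-values were 0.0644 for Asb9, 0.0536 for Nsg2 and 0.0630 for Tox3, and limma then called 0 genes (3365 at an unadjusted p under 0.05).

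**Figure D2:**
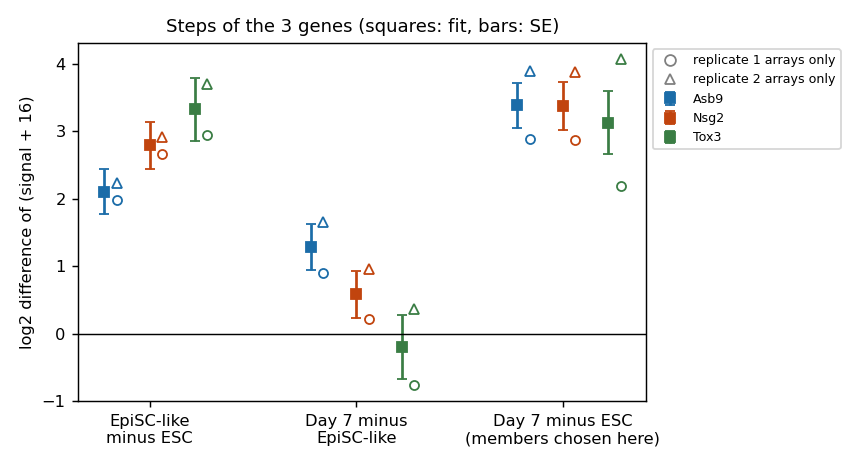
Log2 differences of (signal + 16) between groups for the 3 genes. Squares are the fitted values with their SE, and open circles and triangles are differences within replicate 1 and replicate 2 arrays. The day 3 step runs from 2.10 for Asb9 to 3.33 for Tox3, and the second step from 1.28 down to -0.20.

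The called genes next to the 3 in the size of the day 7 difference, with 16 units added, are given as a description, since the 3 were chosen on it and the order depends on that constant. Just above Asb9 was Ndrg1 (3.42), a hypoxia-responsive gene, and just below Nsg2 was Igfbp5 (3.36), which encodes a binding protein of insulin-like growth factors. Tox3 lay between Cyp26b1 (3.28), which encodes an enzyme that degrades retinoic acid, and Zic1 (3.00), a zinc finger factor of the neural plate. The genes beside them in this order differed in their day 3 values. Against ESC, the day 3 log2 difference was -0.46 for Ndrg1 and -0.18 for Cyp26b1, while it was 1.46 for Igfbp5 and 1.96 for Zic1. None of these 4 passed the test at day 3 in limma, where 1.9% of all genes were called, so that is no result about them. Zic1 (limma adjusted p = 0.0654) and Igfbp5 (0.0781) lay near the threshold, as did Asb9 on its other side (0.0428). The 3 chosen genes had larger day 3 values than each of the 4, and these differences were not tested.

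The other ASB genes had day 3 values nearer to 0 than Asb9, and the difference between members was not tested. The other 17 ASB genes had a median log2 difference of 0.10 between day 3 and ESC, against 0.03 for all genes, and 0 of the 17 passed in limma (3 at an unadjusted p under 0.05), with 1.9% of all genes called. Their values ran from -0.80 (Asb10) to 1.09 (Asb2). Asb11, the X-linked gene next to Asb9, read 39.97 ± 20.3 (SD, n = 2) in ESC and 17.5 ± 20.3 at day 7, a log2 difference of -0.84 ± 0.47 (limma adjusted p = 0.407). The shared parts of the ligase, Cul5, Rnf7, Eloc and Elob, were bright on every array and differed between groups by log2 values from -0.32 to 0.58, with no call. Between day 7 and ESC 0 of the 17 ASB genes passed in limma (0 at an unadjusted p under 0.05), with a median of 0.19. Over all genes 1.05% were called there, so the count of 0 is no result about the family.

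Ckb, the brain-type creatine kinase and the known cargo of Asb9, was lowest at day 3. It read 7863 and 10295 signal units in ESC, 3360 and 2981 at day 3, and 6662 and 9745 at day 7. The day 3 arrays lay below the other 4, which interleaved. Its log2 differences were -1.50 ± 0.29 at day 3 (against ESC, limma adjusted p = 0.0611) and 1.34 ± 0.29 from then to day 7 (adjusted p = 0.127), and neither passed. Of the 8 ligase and creatine kinase genes 0 passed in any of the 3 comparisons in limma (at an unadjusted p under 0.05, 2 for the day 3 step, 2 for the step to day 7 and 0 over the whole course). Over all genes 1.9%, 0% and 1.05% were called in the same order, so the count of 0 is no result about these 8.

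Nsg1, a relative of Nsg2, showed its highest values at day 7. It read 59.3 and 36.2 signal units in ESC, 102 and 98.8 at day 3, and 137 and 398 at day 7. Its log2 difference was 0.89 ± 0.48 at day 3 (against ESC, limma adjusted p = 0.436) and 2.01 ± 0.48 at day 7 (adjusted p = 0.108), so it did not pass. Caly, the gene of calcyon, stood at -0.48 ± 0.29 and -0.13 ± 0.29 in the same comparisons. Of the 10 AMPA receptor and endosomal trafficking genes 0 passed in limma in any comparison (1 in each at an unadjusted p under 0.05). Over all genes 1.9% were called for day 3 against ESC, 0% for day 7 against day 3 and 1.05% for day 7 against ESC. The count of 0 is therefore no result about these genes. The largest value among them was that of Grip1, a scaffold that binds AMPA receptors, at 1.32 ± 0.27 for day 3 against ESC (adjusted p = 0.0721). The receptor subunit gene Gria1 read at most 23.8 signal units on the 6 arrays, below the median probe set, while Gria2 read 33.9 to 89.9.

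Of the other TOX genes, Tox was the nearest to Tox3 in pattern. Tox read 34.6 and 10.9 signal units in ESC, 73.5 and 51.3 at day 3, and 58.7 and 61.7 at day 7. Its ESC arrays lay below the other 4, as for Tox3, but the difference of 1.07 ± 0.35 at day 3 did not pass (limma adjusted p = 0.200). Tox2 (0.13 ± 0.37) and the broadly expressed Tox4 (-0.02 ± 0.22) had values near 0 at day 3. Of these 3 genes 0 passed in any comparison in limma (1 in each at an unadjusted p under 0.05). The 6 CREB partners had a median log2 difference of 0.52 at day 3 and 0.29 at day 7 against ESC with 0 called in limma (2 at an unadjusted p under 0.05 in each). Over all genes 1.9% were called at day 3 and 1.05% at day 7 against ESC, and 0% between day 3 and day 7. The counts of 0 for the TOX genes and CREB partners are therefore no result about them. Creb1 read 1150 to 1934 and Crebbp, the gene of CBP, 1521 to 2207 on the 6 arrays. Cited1, a CBP-binding coactivator, read 59.3 and 461 on the day 7 arrays against 7.62 to 47.0 on the other 4 and did not pass (day 7 against ESC 2.01 ± 0.80, adjusted p = 0.260).

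**Figure D3:**
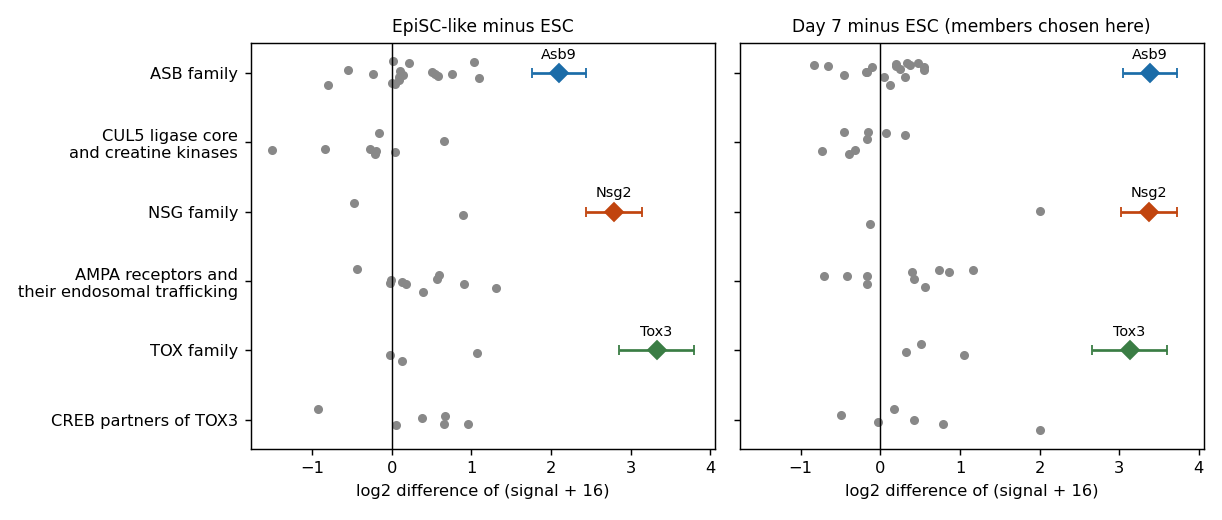
Log2 differences of (signal + 16) for the 3 genes (diamonds with SE) and for the other measured members of 6 fixed lists (grey points), for day 3 and for day 7 against ESC. Within each family the chosen gene has the highest value in both panels. The 3 genes were chosen for a large day 7 difference, and the day 3 panel shares its ESC arrays with that choice.

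The measured genes that lie next to the 3 on their chromosomes are given for context. This comparison was added after the data had been seen. The 2 nearest measured on each side were Piga, Asb11, Mospd2 and Fancb for Asb9 on chromosome X, Cpeb4, 4930524B15Rik, Gm12108 and Il9r for Nsg2 on chromosome 11, and Sall1, Gm3134, Gm19935 and Chd9 for Tox3 on chromosome 8. Their log2 differences for day 3 against ESC ran from -0.55 (Asb11) to 0.68 (Chd9), and 0 of 12 passed in limma, where 1.9% of all genes were called, so the count of 0 is no result about them. For day 7 against ESC they ran from -0.84 (Asb11) to 0.48 (Mospd2), with adjusted p-values from 0.407. Chd9, which encodes a chromatin remodeller, read 1221 in ESC, 1962 at day 3 and 1192 at day 7 (means of 2 arrays). Neither its day 3 difference from ESC nor its step from day 3 to day 7 passed (limma adjusted p = 0.274 and 0.304).

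The genes with the most similar profiles to each of the 3 over the 6 arrays share the step from ESC by the way they were picked and are named as a description. Likeness was measured as the root mean square difference between log2 profiles centred on their own means, and a smaller value is a closer match. Nsg2 was the gene nearest to Asb9 (0.33), followed by Igfbp5 (0.39), the secreted neuronal glycoprotein gene Olfm1 (0.39), the brain arginine methyltransferase gene Prmt8 (0.44) and Auts2 (0.44). Nearest to Nsg2 were Vopp1 (0.34), the homeobox genes Meis2 (0.38) and Irx3 (0.43), Auts2 (0.42) and the membrane proteolipid gene Gpm6b (0.47). Nearest to Tox3 were the ubiquitin ligase gene Pdzrn3 (0.32), Vopp1 (0.34), the kinase gene Stk39 (0.40), the neural transcription factor gene Sox11 (0.40) and Enho (0.42). Asb9 itself, too dim at its highest to count among the candidates, was closer to Nsg2 than Vopp1 was. The median over all candidate genes was 1.43 for Asb9, 1.51 for Nsg2 and 1.59 for Tox3. Asb9 and Tox3 were farther from each other (0.76) than either was from Nsg2 (0.33 and 0.54).

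Among these neighbours in profile the day 3 and day 7 arrays overlapped for some genes and not for others, which is given as a description. The share of all genes without overlap is not given here, and limma called 0 genes between day 3 and day 7. Nothing is therefore read from it. Igfbp5 read 69.3 and 88.3 signal units at day 3 and 299 and 378 at day 7, so like Asb9 its day 3 and day 7 arrays did not overlap. Meis2 read 129 and 108 in ESC, 1248 and 1961 at day 3, and 1742 and 2384 at day 7, with the overlap seen for Nsg2. Vopp1 and Gpm6b overlapped too, but Auts2 and Irx3, also near Nsg2, did not. Auts2 read 1353 and 1312 at day 3 and 1609 and 1992 at day 7, and Irx3 503 and 568, then 455 and 460. Stk39 read 417 and 478 at day 3 and 281 and 257 at day 7, without the overlap seen for Tox3. The lower level of Stk39 at day 7 did not pass (-0.70, limma adjusted p = 0.411). Sox11 read 546 and 223 in ESC and 1613 to 2257 on the other 4 arrays. Its ESC replicates were apart in the same direction as those of Tox3, as were those of Pdzrn3, Vopp1, Stk39 and Enho. The likeness included the ESC arrays, so such a match is favoured by the way these genes were picked.

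**Figure D4:**
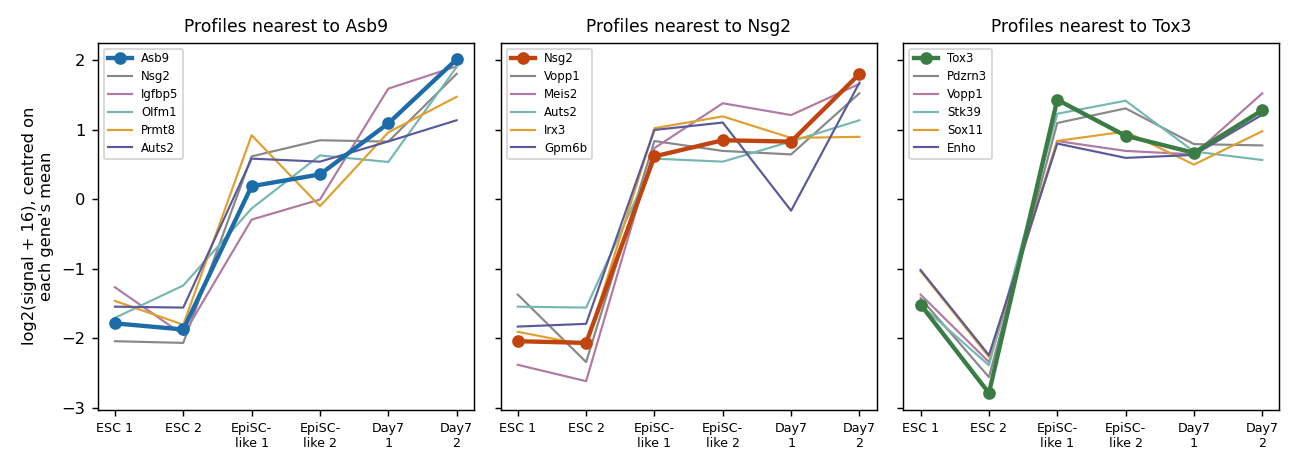
Log2(signal + 16) of each of the 3 genes (thick line) and of the 5 genes nearest in profile, centred on each gene's mean, over the 6 arrays. Lines join arrays only to guide the eye. The step from ESC to day 3 is the main change in the Nsg2 and Tox3 panels, while Asb9 and Igfbp5 have higher values on both day 7 arrays than on both day 3 arrays, differences that did not pass (limma adjusted p = 0.181 and 0.0871).

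The 2 day 7 arrays differed in Asb9 and Nsg2. Endoderm and neuron markers moved the same way, while primed epiblast markers moved the other way. Replicate 2 read 2.01 times replicate 1 for Asb9, 2.06 times for Nsg2 and 1.55 times for Tox3. Of all genes 54.9% were higher on replicate 2, and 11.9% by at least 2-fold. Of 10 primitive and visceral endoderm markers 10 were higher on replicate 2 and 9 by at least 2-fold. Their summed signals were 2970 and 12006 on the day 7 arrays, 1000 to 1265 in ESC and 930 to 1093 at day 3. Col4a1 made up most of both day 7 sums (1853 and 7417). In limma 0 of the 10 passed for day 3 against ESC, day 7 against day 3 or day 7 against ESC. At an unadjusted p under 0.05 there were 2, 6 and 8. Over all genes 1.9%, 0% and 1.05% were called in the same order, so the count of 0 is no result about them. Gata4, one of the defining endoderm factors, read 36.8 and 55.1 at day 7, below the median probe set, whereas Sox17 read 111 and 751. Of 12 neuron markers 12 were higher on replicate 2, 5 by at least 2-fold, with sums of 5491 and 10074. Of 6 primed epiblast markers 1 was higher on replicate 2, with sums of 21360 and 15168. The summed trophoblast markers (4249 and 3317) and primitive streak and mesoderm markers (651 and 525) were lower on replicate 2 too. Sums of the remaining lists were higher on day 7 replicate 2. Some sums differed by array number in the other groups as well. The primed epiblast sum was 14839 and 10376 in ESC (replicates 1 and 2), but 37102 and 39553 at day 3. The trophoblast sum was lower on replicate 2 in ESC (4857 and 4171) and at day 3 (3185 and 1847). The part of these lists in the Asb9 and Nsg2 values was not tested, and neither was the part of the array number in the sums. In sorted bulk samples a change in the share of cells and a change in RNA per cell cannot be told apart.

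The summed neural progenitor and primed epiblast markers were higher on both day 3 arrays than on both ESC arrays, and the summed neuron and pluripotency markers were lower. The 12 neuron markers summed to 12777 and 17529 in ESC and to 6212 and 5874 at day 3. Most of the ESC sum came from Stmn2, a neuronal microtubule gene, which read 8317 and 13364 there. Without Stmn2, left out after its values were seen, the other 11 summed to 4460 and 4165 in ESC and 4740 and 4757 at day 3. At day 7 they summed to 4032 and 7569. Dcx, a marker of young neurons, read 2.57 to 33.4 on the ESC and day 3 arrays and 78.3 and 604 at day 7. Its day 7 difference against ESC did not pass (limma adjusted p = 0.154). Of the 12 neuron markers, 9 had a log2 difference above 0 in that comparison, and Ina (-0.59) and Syp (-0.18) were among those below. For day 3 against ESC the neuron list ran from -3.02 to 1.41 on the log2 scale. In limma 0 of 12 passed as higher (2 at an unadjusted p under 0.05 in either direction), beside 1.33% of all genes. Stmn2 passed as lower (-3.02, limma adjusted p = 0.0248), 1 of 12 beside 0.572% of all genes. It also passed as lower at day 7 against ESC (-2.45, adjusted p = 0.0465), where 0.286% of all genes did. The 8 neural progenitor markers were summed to 674 and 697 in ESC, 2083 and 2817 at day 3 and 2083 and 3012 at day 7. At day 3, 2 of 8 passed as higher (Sox1 and Fabp7), beside 1.33% of all genes. For day 7 against ESC 4 of 8 passed as higher (Sox1, Pax3, Fabp7 and Zic1) and 0 of 12 neuron markers did, beside 0.764% of all genes. The 6 primed epiblast markers summed to 14839 and 10376 in ESC, 37102 and 39553 at day 3 and 21360 and 15168 at day 7. Of these, 3 of 6 passed as higher at day 3 (Fgf5, Pou3f1 and Lef1), with a median log2 difference of 3.11, and 1 of 6 at day 7 against ESC (Fgf5). The part of these lists in the day 3 and day 7 values of the 3 genes was not tested. The 8 naive and core pluripotency markers summed to 74036 and 97170 in ESC, 42414 and 40296 at day 3 and 55631 and 66603 at day 7. None of the 8 was below the median probe set on any array. At day 3, 3 of 8 passed as lower than in ESC (Klf4, Esrrb and Tfcp2l1), beside 0.572% of all genes, and 0 of 8 passed at day 7 against ESC.

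**Figure D5:**
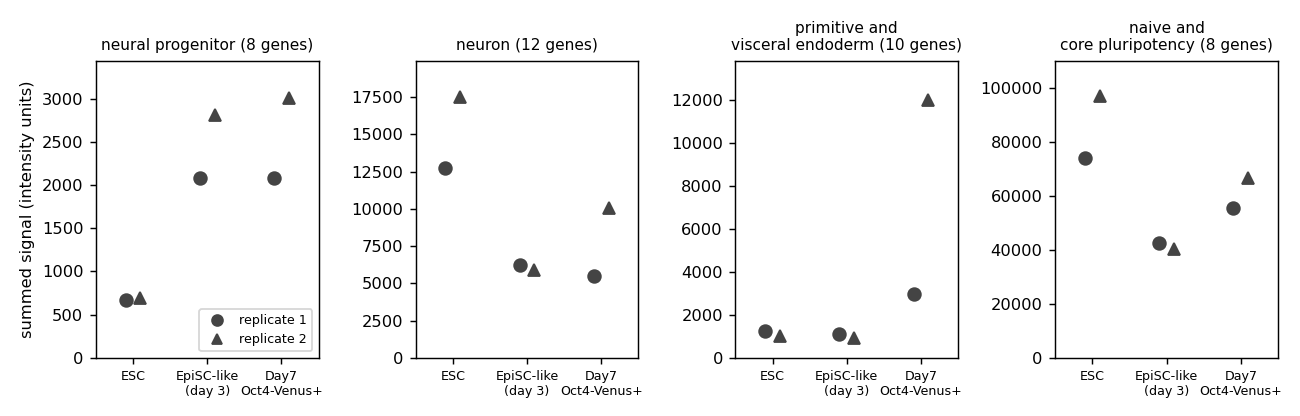
Summed signal of 4 marker lists (intensity units, axes from 0) on each array, circles for replicate 1 and triangles for replicate 2. The endoderm sum is 2970 and 12006 on the day 7 arrays and at most 1265 elsewhere. Most of both day 7 endoderm sums is Col4a1 (1853 and 7417), and none of the endoderm genes passed in any comparison. The neural progenitor sum is higher on all day 3 and day 7 arrays than in ESC.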

How the data were processed

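The authors deposited 1 linear intensity for each probe set and array. Affymetrix Expression Console (version 1) is named per the submitters' processing notes, and its algorithm is not stated there. The authors' deposited intensity values have a mean of 500.003 to 500.004 per array once the brightest and dimmest 2% of probe sets are dropped, so the arrays had been scaled to one level. Of 45101 probe sets, 64 controls were left out. The platform annotation gave 1 gene to 34945 and several to 932. RefSeq's GRCm38.p6 table held 34741 of the 34945 by gene identifier, with 0 symbols updated. For each of the 18193 genes the probe set brightest on average was used. The genome build of the array's design: not given in the sources used here.

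Values were transformed as log2(signal + 16), so fold changes of dim genes are understated, and limma (3.58.1, R 4.3.3) estimated 3 group means from the 6 arrays together, without a block, leaving 3 residual degrees of freedom before moderation by eBayes. Calls are Benjamini-Hochberg adjusted p-values under 0.05 over all genes. An exact permutation test of 2 arrays against 2 cannot go below a p of 0.333 and was not used. Precision is limited by the number of arrays. The 3 genes and the lists were chosen with earlier results of these data known.

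Named genes are the 3 genes with all their probe sets, the 5 nearest profiles of each among genes whose highest group mean reached the median of all genes (clone names left out), the genes next to each in the size of the day 7 difference (among called genes whose higher group mean reached the median over all genes and arrays, a lower level), and list members called or of the 3 families. Other list and marker genes, and the chromosomal neighbours, were named after their values were seen. T was not measured with a single-gene probe set. Alternatives were the added constant, a filter on dim genes, the scaling, the block, the mean over probe sets and leaving out each array. Promoter windows come from RefSeq.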

Additional observations from a re-analysis of the deposited data

How the results depend on the processing

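For the 3 genes, day 3 stood above ESC and day 7 above ESC in every alternative run, and 1 of the 3 second steps, that of Tox3, changed sign. With 1 in place of 16 added, the day 3 log2 differences were 4.04 for Asb9, 4.02 for Nsg2 and 3.70 for Tox3, none of which passed (limma adjusted p = 0.0777, 0.0773 and 0.115), and the day 7 differences against ESC were 5.50 for Asb9 and 4.64 for Nsg2. With 64 added they were 0.96 for Asb9 at day 3, which no longer passed (adjusted p = 0.0996), and 1.89, 2.07 and 2.44 for the 3 genes at day 7. The mean over its probe sets gave Nsg2 2.37 for day 7 against ESC. With the replicate block, the day 3 differences kept their values of 2.10, 2.79 and 3.33 and did not pass. Under the block 0 genes were called in either comparison with ESC (3365 and 3925 at an unadjusted p under 0.05). Same-numbered arrays correlated in their deviations from group means across genes with 0.286 for ESC and EpiSC-like. The values were 0.0772 for ESC and day 7 and 0.0942 for EpiSC-like and day 7, so pairing by number is not established. The largest value belongs to the groups of the day 3 test, in which none of the 3 genes passed under the block.

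Leaving out 1 array gave day 3 differences of 2.02 to 2.19 for Asb9, 2.67 to 2.91 for Nsg2 and 2.69 to 3.96 for Tox3. Day 7 against ESC gave 2.92 to 3.84, 2.89 to 3.86 and 2.49 to 3.76. For Tox3 from day 3 to day 7 it gave -0.50 to 0.11, with 0.06 without EpiSC-like replicate 1 and 0.11 without day 7 replicate 1. Calls over all genes were 346 for day 3 against ESC, and 0 with 1 added, 666 with 64 added, 715 among genes at or above the median mean, and 0 to 62 without 1 array. For day 7 against ESC they were 191, and 0, 661, 832 and 0 to 3 in the same order. For day 7 against day 3 they were 0, and 209 with 64 added, 313 among genes at or above the median, 10 with arrays centred on their median and 8 with the mean over probe sets. Counts that differ from 346 and 191 by construction include that filter, which tests fewer genes and left out Asb9 and Nsg2; other causes were not tested. Centring on the median moved the split of calls from 242 higher and 104 lower to 184 and 149 at day 3, and from 139 and 52 to 94 and 82 at day 7. Low signal limits Asb9 and Nsg2 in ESC most.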
